A study of Mus musculus with 26 samples.

Results

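The 10 elastic fibre genes Eln, Fbn1, Mfap5, Mfap4, Emilin1, Fbln5, Efemp2, Ltbp4, Lox and Loxl1 were followed through 26 RNA sequencing libraries of mouse mesenteric arteries, the small resistance vessels that feed the gut. They were taken by symbol from a list made with earlier results of these data known, by a rule that sets no threshold on a measured value, and each matched 1 of the 21031 genes of the deposited normalized table. All 10 passed the filter on low counts in every comparison. The lowest single count was 189, for Mfap4 in S205A library 2.

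Elastic fibres let an artery stretch and recoil. Soluble elastin is secreted, gathered into globules by fibulins and latent TGF-beta binding proteins, laid on a scaffold of fibrillin microfibrils and cross-linked by lysyl oxidases. Most of this is made while the vessel grows, chiefly by smooth muscle, with microfibrils of the outer wall made by fibroblasts and part of the inner elastic layer laid down with the endothelium.

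The arteries came from male mice aged 8 weeks in 4 lines, each with its own controls: 3 libraries with a global Panx1 knockout and 3 wild type; 3 Y198F mutants and 3 Y198F controls; 4 S205A mutants and 4 S205A controls; 3 Y308F mutants and 3 Y308F controls. Panx1 encodes pannexin 1, a membrane channel that releases ATP, and the point mutations exchange a residue that can be phosphorylated for one that cannot (Y, tyrosine; F, phenylalanine; S, serine; A, alanine). The genotype labels write the point mutants as +/+ and their controls as -/-, and the design text speaks of littermate or wild-type controls and of 3 vascular trees each, although the S205A groups hold 4 libraries. Nothing further separates the libraries into animals, so p-values measure the spread between these libraries.

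Libraries held between 14895969 and 23617902 counts. In the 3 knockout libraries Panx1 was at 0.961 ± 0.388 CPM (counts scaled to library size; SD, n = 3) and in the 3 wild-type libraries at 4.41 ± 0.891 CPM, which edgeR put at -2.17 on the log2 scale (SE 0.388, adjusted p = 0.25). The libraries also fell into 2 kinds by their names. In 9 of them, called the 22 series here, the number in the name begins with 22: each Y198F mutant, the first 3 S205A controls and all S205A mutants but the first. Ribosomal RNA genes took 0.0831% to 0.139% of their counts, against 2.32% to 7.09% in the other 17. The labels do not explain the number. No library of the Y198F controls is in the 22 series, so series and mutation cannot be told apart in that line. Smooth muscle markers (8 genes, such as Myh11 and Acta2) summed to between 21659 and 45060 CPM in every library, while of 4 acinar and 4 intestinal epithelial markers Cela1 and Vil1 had counts in every library (at most 108 and 73) and the other 6 reached at most 10.

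The promoter sequences of 4 members are printed first, because these are the 2 pairs whose levels followed each other most closely from library to library below: Ltbp4 with Fbln5, and Efemp2 with Loxl1. Each is the stretch of 200 bases just before the start of the canonical GENCODE vM39 transcript on GRCm39, read 5′ to 3′ along the gene's strand, and capitals mark motifs found on either strand. Searched were the GC box, with the letters GGGCGG, the CCAAT box, spelled as named, and the MCAT motif, with the letters CATTCC. The TATA box, with the letters TATAAA, and the CArG box, CCWWWWWWGG with W for A or T, were searched too.
Ltbp4, chr7:27033039-27033238, minus strand: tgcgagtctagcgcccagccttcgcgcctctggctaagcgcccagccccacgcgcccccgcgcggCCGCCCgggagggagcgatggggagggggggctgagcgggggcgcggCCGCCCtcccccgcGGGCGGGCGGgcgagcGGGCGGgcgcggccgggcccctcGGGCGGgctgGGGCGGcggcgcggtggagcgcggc
Fbln5, chr12:101785430-101785629, minus strand: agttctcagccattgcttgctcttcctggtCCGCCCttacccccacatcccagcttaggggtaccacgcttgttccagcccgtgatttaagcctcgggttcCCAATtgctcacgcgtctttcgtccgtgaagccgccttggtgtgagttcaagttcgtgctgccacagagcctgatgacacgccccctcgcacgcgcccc
Efemp2, chr19:5524516-5524715, plus strand: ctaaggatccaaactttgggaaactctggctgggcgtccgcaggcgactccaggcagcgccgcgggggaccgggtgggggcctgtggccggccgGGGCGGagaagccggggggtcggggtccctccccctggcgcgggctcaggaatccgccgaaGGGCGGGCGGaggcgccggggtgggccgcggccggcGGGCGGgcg
Loxl1, chr9:58220496-58220695, minus strand: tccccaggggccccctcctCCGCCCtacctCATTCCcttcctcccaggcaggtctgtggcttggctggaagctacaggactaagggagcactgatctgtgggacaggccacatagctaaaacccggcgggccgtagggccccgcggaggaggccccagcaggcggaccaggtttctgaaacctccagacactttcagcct
Over 250 bases, the Ltbp4 promoter held 7 GC boxes, Efemp2 had 4, Fbln5 had 2 and Loxl1 had 1. At 83.6% G and C, the Ltbp4 promoter was richer in these bases than 99.8% of 21770 promoters of protein-coding genes of the same length, whose median was 53.2%, and the Efemp2 promoter, at 75.6%, was richer than 97.9%. A GC box occurred in 6 of the 10 members and in 36.3% of all promoters, a CCAAT box in 2 of 10 (Fbn1, Fbln5) and 36.5%, and the letters TATAAA in 0 of 10 and 11.9%. A CArG box, the motif bound by serum response factor, occurred in 1 of 10, Fbn1, and in 1.4% of promoters. An MCAT motif occurred in 1 of 10, Loxl1, and 12.1%. Some GC boxes overlap, as GGGCGGGCGG shows. These are matches of letters in a fixed window and say nothing of binding.

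Elastin itself was among the most abundant transcripts of the artery. Eln (chr5:134731445-134776322, minus strand, 37 exons in the canonical transcript) averaged 6167 ± 2115 CPM (SD, n = 26 libraries). It ranked 7 of 18715 genes by CPM and took between 0.292% and 1.04% of all counts (median 0.588%). The 10 genes together took 0.513% to 1.63% (median 0.990%). Levels of different genes are compared per kilobase of exon, in CPM per kb, taking all annotated exons of a gene together. On that scale Eln stood at 747 ± 256 CPM per kb, rank 31 of 18619 genes, or at 1540 if only its longest transcript is counted.

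Ltbp4 (chr7:27004086-27037117, minus strand), which binds fibulin-5 and latent TGF-beta and is needed for elastin to be deposited in an ordered way, came next at 283 ± 119 CPM per kb, below Eln in 25 of 26 libraries. The cross-linking enzyme Lox (chr18:52649136-52663110, minus strand) followed at 70.4 ± 18.9 CPM per kb, below Ltbp4 in all 26. Its relative Loxl1 (chr9:58195014-58220495, minus strand), an enzyme known for renewing elastic fibres in adult tissue, stood at 45.8 ± 11.03 CPM per kb. Fbln5 (chr12:101712556-101785429, minus strand), the fibulin that tethers elastin to cells and microfibrils, stood between them at 47.3 ± 19.2 CPM per kb. Fbln5, Loxl1 and Emilin1 do not differ beyond their spread: Loxl1 was below Fbln5 in 15 of 26 libraries and Emilin1 below Loxl1 in 14.

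Emilin1 (chr5:31070717-31078622, plus strand), a glycoprotein at the border of elastin and microfibril, averaged 44.5 ± 6.85 CPM per kb. The microfibril proteins were lower per kilobase. Mfap4 (chr11:61376212-61379727, plus strand) averaged 34.3 ± 18.5 and Fbn1 (chr2:125142514-125349913, minus strand), which encodes fibrillin-1 and is mutated in Marfan syndrome, 17.0 ± 5.09 CPM per kb. Mfap5 (chr6:122470878-122508875, plus strand), a small microfibril glycoprotein, averaged 12.02 ± 3.25 CPM per kb. Efemp2 (chr19:5523975-5532545, plus strand), which encodes fibulin-4 and brings lysyl oxidase to elastin, averaged 12.1 ± 2.64 CPM per kb. These last 2 do not differ beyond their spread, Mfap5 being the lower in 12 of 26 libraries.

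Exons of Mfap4 overlap those of Mapk7 and exons of Efemp2 overlap those of Mus81, each on the opposite strand. Whether counting used the strand is not stated, so reads of these partners cannot be told apart. Mapk7 had a log2 fold change of 0.03 (SE 0.181) in S205A and Mus81 of 0.24 (SE 0.157) in Y198F, where their partners are described below. Between the library series, where Efemp2 is described too, Mus81 differed by 0.42 (SE 0.147, edgeR adjusted p = 0.063) and Mapk7 by 0.47 (SE 0.135, edgeR adjusted p = 0.026).

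Across all libraries, the coefficient of variation (SD over mean) was 54.1% for Mfap4, 42.2% for Ltbp4, 40.6% for Fbln5 and 34.3% for Eln, and it was 15.4% for Emilin1, the steadiest member. The median over 4054 genes of at least 50 CPM was 14.5%. Mfap4 ran from 12.4 CPM in S205A library 2 to 190 CPM in S205A library 3, a 15.4-fold range that no other member reached, and both ends lay in the same genotype.

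**Figure D1:**
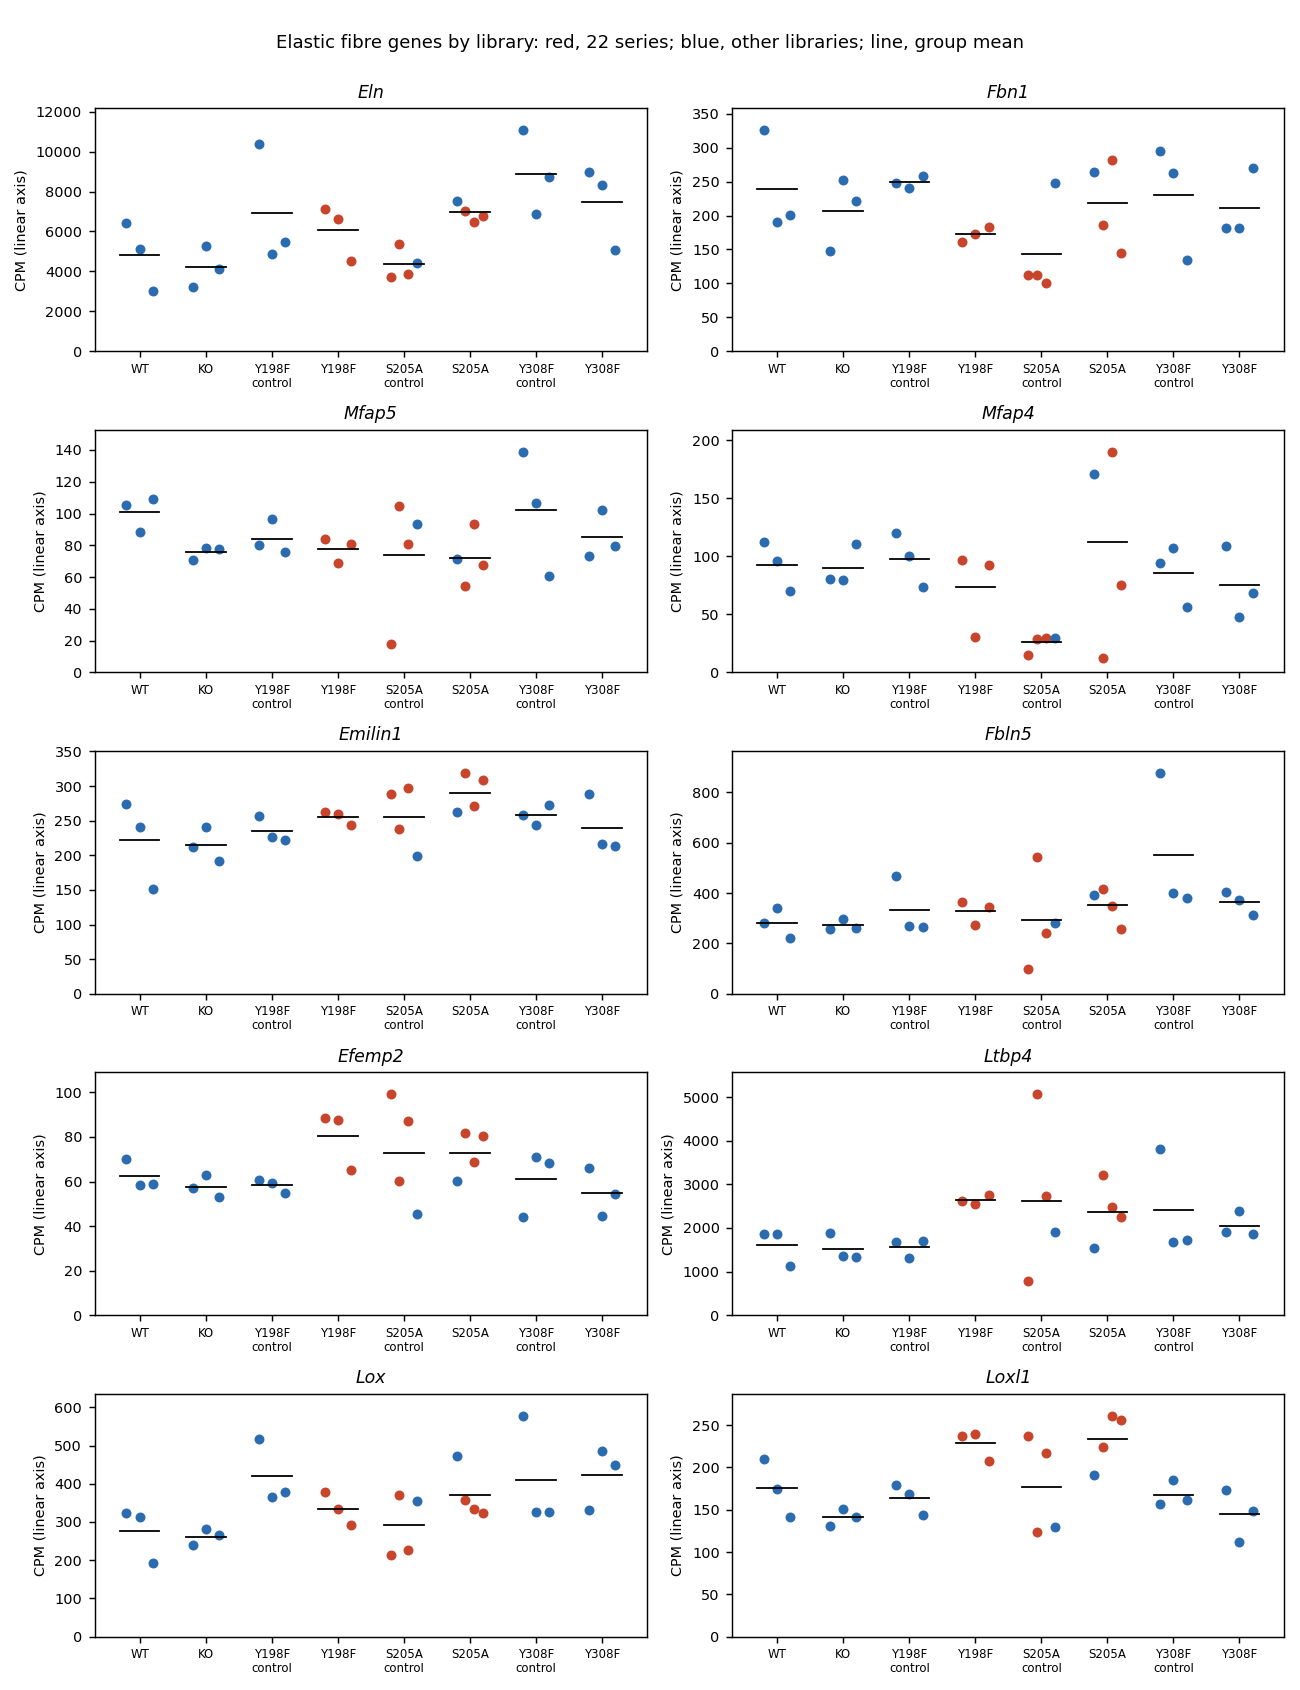
CPM (linear axis from 0) of each of the 10 genes in every library, by group; each point is a library, red for the 22 series and blue for the others, and the line is the group mean. Eln in the 4 S205A libraries (6492 to 7529 CPM) lies above the 4 S205A controls (3728 to 5376 CPM), and Ltbp4 in the 3 Y198F libraries lies close together between 2561 and 2751 CPM.

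By group mean, Eln ran from 8897 ± 2091 CPM in the Y308F controls through 7458 ± 2113 in Y308F, 6956 ± 440 in S205A, 6905 ± 3028 in the Y198F controls, 6078 ± 1374 in Y198F, 4840 ± 1735 in wild type and 4345 ± 746 in the S205A controls to 4206 ± 1040 in the knockout (SD, n = 3, or 4 for the S205A groups). Each group overlapped its neighbour in that order. Mean Eln in the Y308F controls and in the S205A controls differed by more than any mutant mean from that of its own controls. A test of the 3 control groups outside the 22 series (wild type, Y198F controls, Y308F controls; edgeR quasi-likelihood with Benjamini-Hochberg adjustment) called 0 of 16745 genes, with 1178 at an unadjusted p under 0.05. The lowest values among the members were unadjusted p = 0.0561 for Fbln5 and 0.0905 for Eln (edgeR, adjusted p = 0.71 for both).

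In the S205A line, elastin was higher in the mutant. Eln was at 7529, 7025, 6492 and 6777 CPM in S205A libraries 1 to 4 and at 3728, 5376, 3872 and 4404 CPM in S205A controls 1 to 4. Every mutant library lay above every control. The log2 fold change was 0.68 (SE 0.167), with an exact permutation p of 0.0286 (two-sided, the smallest that 4 against 4 can give). Of the 10 members, Eln alone had groups that did not overlap, and 1.81% of 15709 genes did. Adjusted over all genes, edgeR's quasi-likelihood test did not call it (unadjusted p = 0.0023, adjusted p = 1.00). That test called 0 members and 0 genes (0%), with 451 genes at an unadjusted p under 0.05. DESeq2 called Eln (log2 fold change 0.68, adjusted p = 0.025), 1 of 47 genes (0.314%). In the authors' deposited table its log2 fold change is 0.67 with an adjusted p of 0.37.

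The Eln difference was 0.65 (SE 0.22) within the 22 series, 3 libraries against 3, where the groups also stayed apart, and 0.68 (SE 0.169) when edgeR modelled the series as well. Leaving out any 1 of the 8 libraries gave between 0.61 and 0.79. Smooth muscle markers summed to 24349 to 45060 CPM in the S205A controls and 28417 to 37668 CPM in S205A. Relative to that sum, Eln stood at 8.27% to 22.1% in controls and 18.0% to 24.01% in mutants, and these ranges overlap. In tissue made of many cell types, fewer cells of a type and less RNA per cell cannot be told apart.

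Mfap4, a microfibril-associated protein that also binds collagen and integrins, had the widest S205A difference. It was at 171, 12.4, 190 and 74.9 CPM in S205A libraries 1 to 4 and at 15.1, 28.6, 29.98 and 30.1 CPM in S205A controls 1 to 4. Mutant libraries 1, 3 and 4 lay above all controls and mutant library 2 below them, so the groups overlap. The log2 fold change was 2.11 (SE 0.673, edgeR unadjusted p = 0.012, adjusted p = 1.00). Without S205A library 2 it was 2.48 and without S205A library 3 it was 1.73, the range over the 8 libraries left out in turn. In the authors' deposited table Mfap4 is the only one of the 10 past an adjusted p of 0.05 in this comparison (log2 fold change 2.10, adjusted p = 0.027), among 96 genes (0.495%).

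The S205A controls, at 25.9 ± 7.26 CPM (SD, n = 4), were the lowest group of all for Mfap4, and the other 3 control groups lay between 56.5 and 120 CPM in every library. The 11 adventitial fibroblast markers, such as Pdgfra, Dcn and Col1a1, summed to 2578 to 3761 CPM in the S205A controls and to 3715 to 9055 CPM in S205A. Of these 11 markers 9 had a positive log2 fold change (median 1.24, against -0.013 for all genes), and edgeR called 0. Schwann cell markers summed to 75.7 to 115.3 CPM in the controls and 115.4 to 211 CPM in S205A, with 5 of 6 above 0 (median 0.91). Above 0 were also 1 of 7 endothelial, 0 of 7 adipocyte (median -0.55), 6 of 7 macrophage (median 0.61) and 5 of 5 erythroid markers (median 0.27), with none called. The part of these lists in the differences of Mfap4 and Eln was not tested. Per fibroblast marker sum, Mfap4 was 0.585% to 0.946% in the S205A controls and 0.333% to 2.37% in S205A.

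The other members in the S205A line had smaller differences, with groups that overlapped. Fbn1 was at 264, 186, 282 and 144 CPM in the mutants and 112, 112, 100 and 248 CPM in the controls, where control 4, the only one outside the 22 series, stood apart from the other 3. Its log2 fold change was 0.61 (SE 0.330) and was 1.02 without that control. Within the 22 series it was 0.93 (SE 0.238), and there the mutants lay above the controls, as for Eln: 2 of 10 members against 8.75% of genes (exact permutation p = 0.1, the smallest 3 against 3 can give). Loxl1 differed by 0.40 (SE 0.228) and Lox by 0.35 (SE 0.219), with edgeR adjusted p = 1.00 for both. The remaining 5 lay between -0.14 and 0.28 with SE of 0.156 to 0.485. Over all 10, the median was 0.31 with 7 above 0, and the median of all genes was -0.013.

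The spread in this line rests on single control libraries for several members. S205A control 1 held 17.7 CPM of Mfap5, 99.4 of Fbln5 and 781 of Ltbp4, whereas S205A control 2 held 105, 541 and 5063 CPM. Endothelial markers (7 genes, such as Pecam1 and Cdh5) summed to 1178 CPM in the former and 9884 CPM in the latter, the lowest and the highest of the 26 libraries. Without control 1 the S205A log2 fold change of Ltbp4 was -0.45, and without control 2 it was 0.39.

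**Figure D2:**
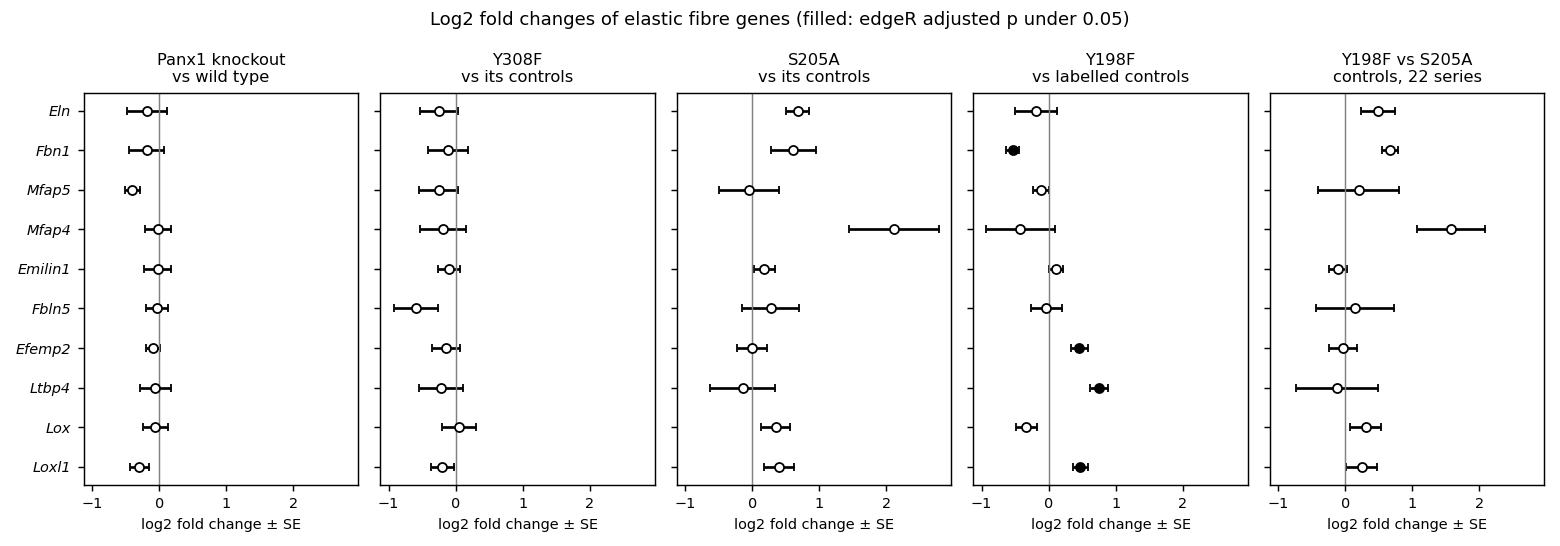
Log2 fold changes (horizontal axis; bars, SE) of the 10 genes in the 4 comparisons and in Y198F against the S205A controls of the 22 series; a filled point has an edgeR adjusted p under 0.05. Filled points occur in Y198F against its labelled controls alone: Ltbp4 (0.75), Loxl1 (0.47), Efemp2 (0.45) and Fbn1 (-0.54); the last panel, with controls of the same series, has none, and there Fbn1 is at 0.67.

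In the Y198F line against its labelled controls, 3 elastic fibre genes were higher and 1 was lower. Ltbp4 was at 2611, 2561 and 2751 CPM in Y198F and 1672, 1304 and 1708 CPM in its controls, and its log2 fold change came to 0.75 (SE 0.139; adjusted p = 0.0049 by edgeR). The cross-linker Loxl1 was at 237, 240 and 208 CPM against 179, 169 and 144 (log2 fold change 0.47, SE 0.117, edgeR adjusted p = 0.019). Efemp2 was at 88.6, 87.5 and 65.4 CPM against 60.9, 59.5 and 55.1 (log2 fold change 0.45, SE 0.125, edgeR adjusted p = 0.031). Fbn1 was lower, at 161, 173 and 184 CPM against 248, 241 and 259 (log2 fold change -0.54, SE 0.1003, edgeR adjusted p = 0.0052). For these 4 genes the groups did not overlap, which held for 34.2% of all genes.

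These 4 of 10 calls stand beside 15% of 16050 genes called in the same comparison, 9.55% higher and 5.48% lower. Every Y198F library is in the 22 series and no labelled control is. Controls of the same series come from another colony, so colony and mutation cannot be told apart there. Against the 3 S205A controls of the 22 series, from another colony, edgeR gave log2 fold changes of -0.12 (SE 0.610) for Ltbp4, 0.24 (SE 0.231) for Loxl1, -0.032 (SE 0.202) for Efemp2 and 0.67 (SE 0.118) for Fbn1. Modelling the series across all 8 groups gave 0.08, 0.01, -0.13 and 0.28. Of the 10, 0 were called in either, beside 0 of 15879 genes and 0 of 18715 genes. Fbn1 was above 0 in both, but its value with the series modelled, 0.28, had an SE of 0.407. Against the S205A controls, no library left out changed its sign. Both values draw on the S205A controls of the 22 series, so they are not independent. The signs of Ltbp4 and Efemp2 against the S205A controls rest on single libraries: Ltbp4 was at 0.59 without S205A control 2, and Efemp2 was above 0 (at most 0.12) without S205A control 1, S205A control 3 or Y198F library 3. Within the labelled comparison, the calls of Ltbp4 and Fbn1 held whichever of the 6 libraries was left out. In one fit of all 8 groups without the series, however, 0 of the 10 were called, beside 4.93% of 18715 genes. The edgeR adjusted p was 0.32 for Ltbp4, 0.39 for Fbn1, 0.22 for Efemp2 and 0.17 for Loxl1. Their log2 fold changes were 0.76, -0.53, 0.46 and 0.48. The Efemp2 call was lost without any 1 of 5 libraries (edgeR adjusted p = 0.069 to 0.15) and held without Y198F library 3. The Loxl1 call was lost without Y198F control 3, Y198F library 1 or Y198F library 2 (edgeR adjusted p = 0.053 to 0.12).

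Lox, at 379, 333 and 292 CPM in Y198F and 518, 365 and 378 CPM in its controls, was not called (log2 fold change -0.34, SE 0.154, edgeR adjusted p = 0.18) and was at 0.30 against the S205A controls. The 5 members not named so far in this line, Eln among them, lay between -0.42 and 0.11 with SE of 0.105 to 0.513. Fibroblast markers summed to 3595 to 4850 CPM in Y198F and 5045 to 6594 CPM in its controls, without overlap. Endothelial markers summed to 5009 to 5433 CPM and 3888 to 4971 CPM, also without overlap. Schwann cell markers summed to 116 to 136 CPM in Y198F and 144 to 239 CPM in its controls, without overlap, with 1 of 6 above 0. Above 0 were also 5 of 8 smooth muscle (median 0.27), 2 of 11 fibroblast (median -0.73) and 6 of 7 endothelial markers (median 0.17). For other lists these were 7 of 7 adipocyte (median 0.92), 5 of 5 erythroid (median 1.55) and 0 of 7 macrophage markers (median -0.45). Of all marker lists, edgeR called Smtn (0.54) and Lmod1 (-0.48) of smooth muscle, Tie1 (0.39) of endothelium, and Mbp (-0.85) and Cdh19 (-0.85) of Schwann cells (adjusted p = 0.016, 0.016, 0.034, 0.012 and 0.020). Their part in the 4 member calls was not tested.

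Against the S205A controls of its own series, edgeR called 0 of the 10 members and 0 of 15879 genes (0%; 492 at an unadjusted p under 0.05). Fbn1 and Mfap4 are the members described here. Fibroblast markers summed to 3595 to 4850 CPM in Y198F and 2578 to 3168 CPM in these 3 controls, without overlap, with 10 of 11 log2 fold changes above 0 (median 0.71). Above 0 were also 0 of 8 smooth muscle, 4 of 7 endothelial, 6 of 7 adipocyte, 6 of 7 macrophage, 5 of 6 Schwann cell and 5 of 5 erythroid markers. Of these lists edgeR called no marker, and their part in the members' values was not tested. Fbn1, at 161, 173 and 184 CPM against 112, 112 and 100, had a log2 fold change of 0.67 (SE 0.118, edgeR unadjusted p = 0.00042, adjusted p = 1.00). DESeq2, added after these values were seen, called it (adjusted p = 0.020), among 37 genes (0.209%). Mfap4, at 96.4, 30.4 and 92.9 CPM against 15.1, 28.6 and 29.98, had a log2 fold change of 1.57 (SE 0.507). These 2 were the members whose groups did not overlap, as in 8.23% of genes. Eln differed by 0.49 (SE 0.254). The S205A mutants and Y198F are set here against shared control libraries, which were also the lowest of all control groups for Fbn1 and Mfap4, so the 2 comparisons are not independent. The authors' deposited Y198F table also rests on S205A controls: a DESeq2 fit of all 8 groups returned its log2 fold changes for the 10 genes when Y198F was set against all 4 S205A controls (largest difference 1.37e-06), and not against the labelled controls (largest difference 1.92). With S205A control 4 (248 CPM of Fbn1) among the controls, Fbn1 stands at 0.26 on the log2 scale in the authors' deposited table (adjusted p = 0.92).

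In the Panx1 knockout, no elastic fibre gene passed the test. Log2 fold changes ran from -0.40 to -0.02, all below 0 (median -0.08; all genes, 0.0052), and edgeR called 0 members and 5 of 16193 genes (0.0309%; 1817 at an unadjusted p under 0.05, Mfap5 the one member among them), while DESeq2 called 0 members and 117 genes (0.904%). Mfap5 was at 70.6, 78.5 and 77.6 CPM in the knockout and 105, 88.6 and 109 CPM in wild type. It was the one member whose groups did not overlap (18.8% of genes), and its log2 fold change came to -0.40 (SE 0.109; edgeR unadjusted p = 0.0052, adjusted p = 0.34). Leaving out a library gave -0.48 to -0.34. Loxl1 was at 131, 151 and 141 CPM against 210, 175 and 142, and these groups overlap (log2 fold change -0.29, SE 0.144). Without wild-type library 3 it was -0.43 and without wild-type library 1 it was -0.15. The direction over the members rests on single wild-type libraries: without wild-type library 1, 6 of 10 were above 0 (median 0.056), and without wild-type library 2, 5 were. Smooth muscle markers had 0 of 8 log2 fold changes above 0 (median -0.24), adipocyte markers 0 of 7 (median -1.37) and erythroid markers 0 of 5 (median -2.88). Macrophage markers had 7 of 7 above 0 (median 0.49) and lymphoid markers 5 of 5 (median 0.39). Of these 5 lists, edgeR called no marker. Their part in the members' values was not tested. The other 8 lay between -0.18 and -0.02, with SE of 0.110 to 0.294.

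In Y308F no elastic fibre gene passed the test: edgeR called 0 members and 0 of 16037 genes (0%; 706 at an unadjusted p under 0.05, none of them a member). No member had groups without overlap, against 10.7% of genes. Fbln5 had the widest difference, at 405, 374 and 314 CPM in Y308F and 876, 400 and 381 CPM in its controls (log2 fold change -0.59, SE 0.325, edgeR adjusted p = 0.94). That rests on Y308F control 1, without which it was -0.08. The same library held 11068 CPM of Eln, the highest of the series, 3810 CPM of Ltbp4 and endothelial markers at 9723 CPM. The other 9 members lay between -0.25 and 0.05, with SE of 0.157 to 0.345. Among markers, 2 of 8 smooth muscle, 5 of 11 fibroblast, 2 of 7 endothelial, 1 of 7 adipocyte, 0 of 7 macrophage, 0 of 6 Schwann cell and 1 of 5 erythroid genes were above 0, with none called, and their part in the members' values was not tested.

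Whether the effects of 2 mutations differ was tested as an interaction in edgeR for the 6 pairs of comparisons. Loxl1 was the only member past the threshold in any pair: its effect in the knockout minus that in Y198F was -0.77 (SE 0.190, edgeR adjusted p = 0.019), where 11.6% of genes were called, and this pair sets a comparison confounded with the series against one that is not. The other pairs called 0 members, beside 5.7% of genes for Y198F minus Y308F, 0.00562% for knockout minus S205A, 0.0116% for knockout minus Y308F and 0% for both remaining pairs. For Eln, the knockout effect minus the S205A effect was -0.88 (SE 0.339), the Y198F effect minus the S205A effect was -0.87 (SE 0.348), and the S205A effect minus the Y308F effect was 0.90 (SE 0.316). None of these passed (edgeR adjusted p = 1.00, 0.29 and 1.00), so the Eln difference is not shown to be particular to S205A.

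The estimated step between the library series differed among the members. In a fit of the 8 groups plus the series (edgeR), where the S205A line alone holds both kinds within a genotype, Efemp2 was higher in the 22 series by 0.59 (SE 0.193, adjusted p = 0.048). That was 1 of 10 members, beside 11.7% of 18715 genes. Ltbp4 stood at 0.68 (SE 0.437), Loxl1 at 0.47 (SE 0.190) and Emilin1 at 0.33 (SE 0.165), with Lox at -0.44 (SE 0.229), Mfap4 at -0.61 (SE 0.603) and Fbn1 at -0.81 (SE 0.278; edgeR adjusted p = 0.062). The order followed base composition in part. G and C made up 43.7% of the canonical transcript of Mfap5 and 62.5% of that of Ltbp4, and over the 10 members (genes, not independent replicates) the series difference had a Pearson r of 0.62 and a Spearman rho of 0.67 with it. Over 18619 genes these were 0.22 and 0.41. When all genes were divided into 10 equal classes by this content, the median difference went from -0.34 in the lowest class to 0.40 in the highest. Fbn1, with 52.2%, and Mfap4, with 53.9%, lay below the medians of their classes (0.096 and 0.18). Eln, with 59.1%, was at -0.09 where its class had 0.40. Efemp2, with 55.8%, lay above the median of its class (0.28).

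**Figure D3:**
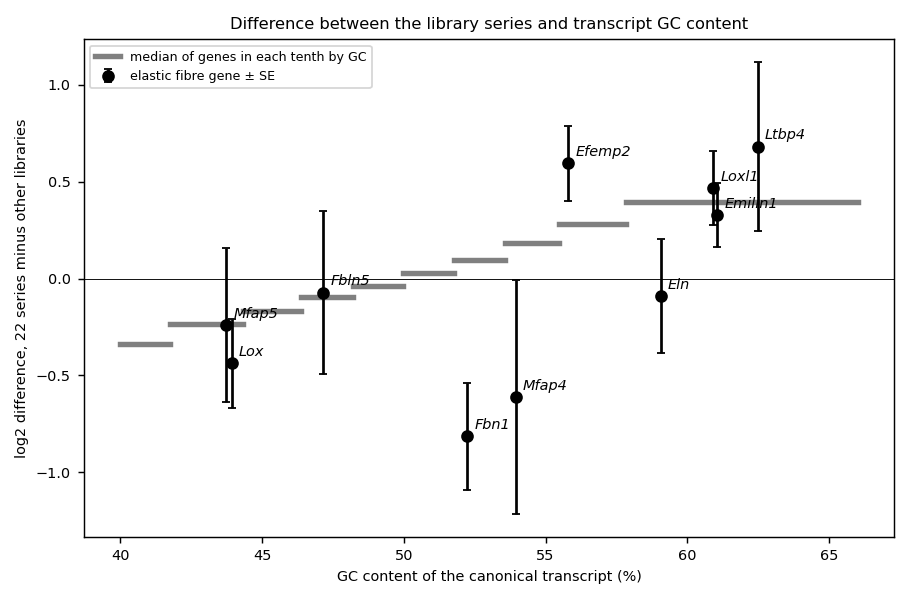
Log2 difference of the 22 series minus the other libraries, estimated within the S205A line (vertical axis, with SE bars). The horizontal axis is the G and C content of each gene's canonical transcript (percent). Grey bars are medians of all genes in each of 10 classes by that content. Loxl1 and Emilin1 sit near the grey bar at 0.40, and Ltbp4 (62.5%, 0.68, SE 0.437) lies above it. Efemp2 (0.59) lies above the bar of its class (0.28), whereas Fbn1 (-0.81), Mfap4 and Eln lie below those of their classes.

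The members did not vary as one block. Deviations of log2 CPM from the mean of each group and series were correlated over 24 libraries (S205A control 4 and S205A library 1 are alone in their stratum), for all 45 pairs. Of these, 31 were positive, with a median r of 0.15, and 7 passed the Benjamini-Hochberg threshold on Pearson's r by permutation within groups, all positive. Ltbp4 and Fbln5 had r = 0.90 (rho = 0.70, permutation p = 0.0020, adjusted 0.031; r = 0.74 without the 2 libraries farthest on Fbln5). Efemp2 and Loxl1 had r = 0.76 (rho = 0.71, permutation p = 0.00055, adjusted 0.025; r = 0.73 without 2). Lox went with Fbln5 (r = 0.75), Ltbp4 (r = 0.69) and Eln (r = 0.68), Eln with Fbln5 (r = 0.56), and Emilin1 with Efemp2 (r = 0.52). By Spearman's rho, 0 of 45 passed, with the lowest adjusted permutation p at 0.0504. Efemp2 and Ltbp4, whose promoters are printed above with 4 and 7 GC boxes, had the lowest value, r = -0.64 (permutation p = 0.029, adjusted 0.12).

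Several members also followed markers of the wall's cell types. In a family of 40 relations of the 10 genes with the summed levels of smooth muscle, fibroblast, endothelial and adipocyte markers, 8 passed by Pearson's r. Ltbp4 followed the endothelial sum at r = 0.99 (rho = 0.97, permutation p = 1e-05, the smallest 100000 permutations can give, adjusted 0.0002; r = 0.98 without the 2 farthest libraries). Fbln5 did so at r = 0.90 (rho = 0.71, permutation p = 0.0020, adjusted 0.018; r = 0.72 without 2) and Lox at r = 0.67 (rho = 0.62, permutation p = 0.0079, adjusted 0.039; r = 0.66 without 2). Mfap4 followed the fibroblast sum at r = 0.89 (rho = 0.81, permutation p = 1e-05, adjusted 0.0002; r = 0.85 without 2). With smooth muscle markers went Efemp2 (r = 0.79, rho = 0.75, permutation p = 0.00079, adjusted 0.011), Loxl1 (r = 0.70, rho = 0.62, adjusted permutation p = 0.034) and Emilin1 (r = 0.69, rho = 0.71, adjusted permutation p = 0.018). Mfap5 went against these markers (r = -0.70, rho = -0.66, adjusted permutation p = 0.034). Without the 2 farthest libraries r was 0.78 for Efemp2, 0.54 for Loxl1, 0.56 for Emilin1 and -0.67 for Mfap5. By rho, Loxl1 and Lox no longer passed (adjusted permutation p = 0.066 and 0.10). Eln passed with none of the 4 lists: r was 0.16 with smooth muscle, 0.39 with endothelium, 0.12 with fibroblast and -0.52 with adipocyte markers (adjusted permutation p = 0.75, 0.10, 0.75 and 0.10). Mfap5 and the endothelial sum had r = 0.79, which fell to 0.32 without the 2 farthest libraries. CPM of all genes in a library share one total, so a library rich in one cell type is poorer in the others.

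**Figure D4:**
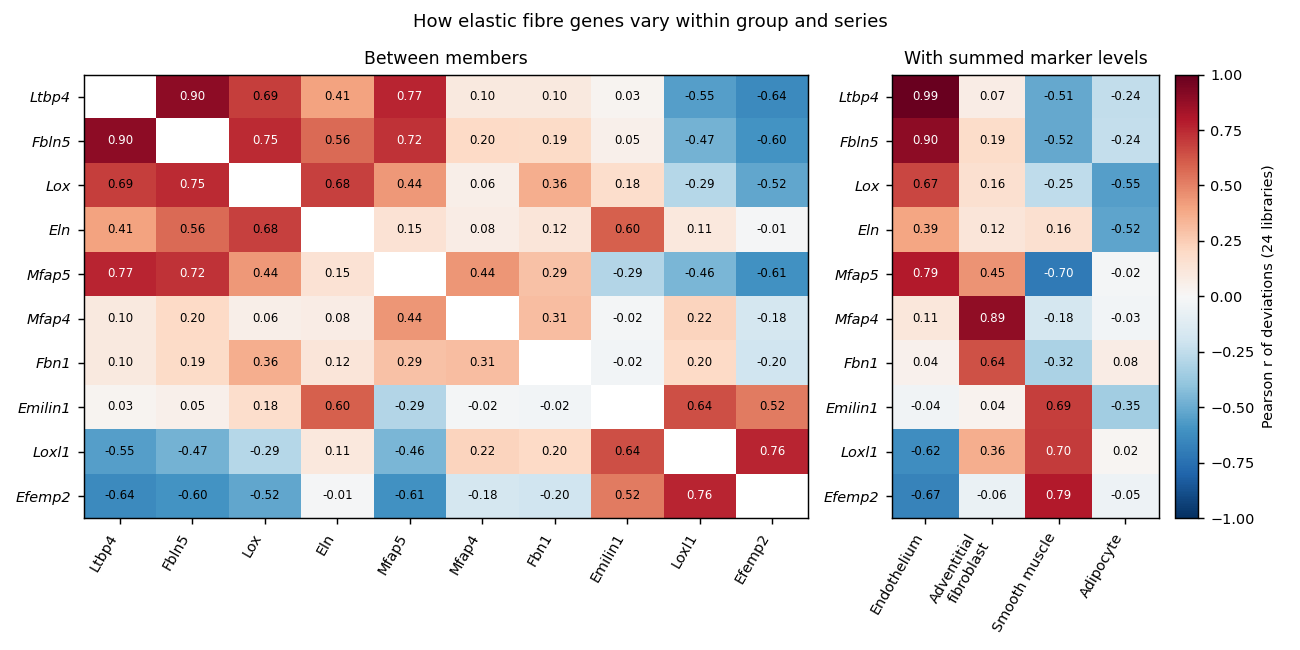
Pearson r over 24 libraries of deviations of log2 CPM from the mean of each group and series: left, between the 10 genes; right, of each gene with summed CPM of 4 marker lists. Ltbp4 and Fbln5 (0.90) and the endothelial column (0.99 and 0.90) stand out, as do Efemp2 and Loxl1 (0.76) with smooth muscle and Mfap4 (0.89) with fibroblast markers.

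Set against the endothelial sum, Ltbp4 separated the library series without overlap. Its CPM equalled 50.6% to 66.3% of the endothelial marker sum in the 9 libraries of the 22 series and 31.3% to 40.4% in the other 17. Within the S205A line, S205A control 4 (34.3%) and S205A library 1 (33.8%) lay with the other 17, as their names place them, and in Y198F the values were 50.6% to 51.1% against 33.5% to 35.2% in its labelled controls. Fbln5 gave no such separation (5.20% to 8.44% and 4.90% to 9.83%). The separation was noticed in the plot of these values and is a description.

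**Figure D5:**
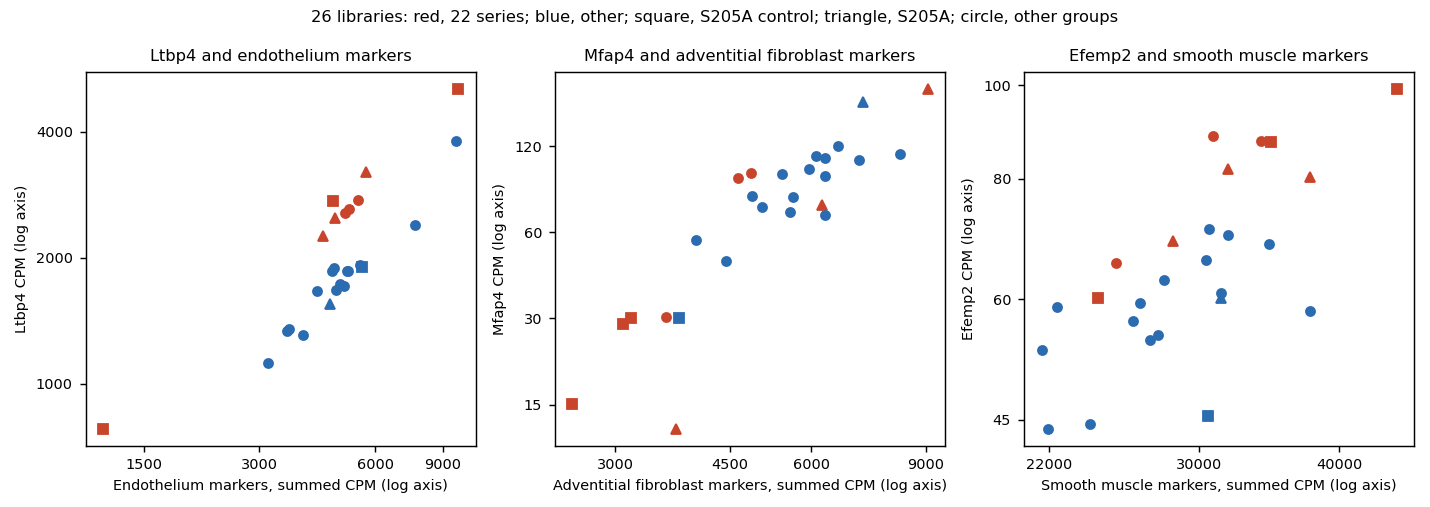
CPM of Ltbp4, Mfap4 and Efemp2 (vertical, log axis) against the summed CPM of endothelial, adventitial fibroblast and smooth muscle markers (horizontal, log axis) in the 26 libraries; red, 22 series; blue, other libraries; squares, S205A controls; triangles, S205A; circles, other groups. Ltbp4 runs along 2 bands, one for each series, from 781 CPM in S205A control 1 to 5063 CPM in S205A control 2, and Mfap4 is lowest in the S205A controls and in S205A library 2.

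Among 10209 genes with a mean log2 CPM of at least 3, those most like Eln in their library-to-library deviations were Dnajc14 (r = 0.82, rho = 0.73), Tnks1bp1 (r = 0.80, rho = 0.80), Tmem132a (r = 0.80, rho = 0.80), Cd82 (r = 0.78, rho = 0.78) and Pmpca (r = 0.77, rho = 0.76). Those most like Mfap5 were Pi16 (r = 0.94, rho = 0.83), Rian (r = 0.93, rho = 0.88), Elmo1 (r = 0.93, rho = 0.73), Pcolce2 (r = 0.92, rho = 0.88) and S100a10 (r = 0.92, rho = 0.90). Without the 2 libraries farthest on Mfap5, r lay between 0.77 (Elmo1) and 0.90 (S100a10). Pi16 belongs to the list of adventitial fibroblast markers, but Mfap5 did not pass with the sum of that list (r = 0.45, rho = 0.44, adjusted permutation p = 0.070). Likeness was taken over the 24 libraries, which share depth and tissue makeup, and is a description.

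Of 38 further genes of elastic fibre biology (fibrillins and microfibril proteins, fibulins, EMILINs, cross-linkers and copper supply, latent TGF-beta, chaperones, elastases), 34 to 35 were tested per comparison. Highest per kilobase were Tgfb3 (164 CPM per kb), a TGF-beta ligand, Fbln2 (101), a fibulin, and Serpinh1 (81.6), a collagen chaperone. In the knockout, S205A and Y308F 0 of them were called, beside 0.0309%, 0% and 0% of all genes. In Y198F against its labelled controls 7 were higher and 2 lower, beside the 15% of all genes. The microfibril-associated Adamtsl4 (log2 fold change 0.59, SE 0.0899), the copper chaperone Atox1 (0.53, SE 0.152), Tgfb1 (0.53, SE 0.0967) and the latent TGF-beta binding protein Ltbp3 (0.53, SE 0.106) were higher (edgeR adjusted p = 0.0018, 0.039, 0.0046 and 0.0074). The cross-linker Loxl2 (-0.52, SE 0.121) and the protease Ctsl (-0.42, SE 0.127) were lower (edgeR adjusted p = 0.015 and 0.046). Of these 6, Adamtsl4, Ltbp3, Loxl2 and Ctsl were also called, in the same direction, between the library series, where 11.7% of all genes were called. In Y198F against the S205A controls 0 of the 34 tested were called, beside 0 of 15879 genes. In S205A, 25 of 34 were above 0 (median 0.12), where 46.9% of all genes were. In the knockout 10 of 35 were (median -0.075; all genes, 50.8%) and in Y308F 11 of 35 (median -0.070; all genes, 46.0%). In Y198F 15 of 35 were above 0 against its labelled controls (median -0.089; all genes, 49.7%) and 22 of 34 against the S205A controls (median 0.094; all genes, 48.1%).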

How the data were processed

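RNA of mesenteric arteries was sequenced as poly(A) RNA in read pairs of 150 bases, mapped to GRCm39 with STAR 2.7.9a and assigned to genes by featureCounts (Rsubread 2.20.0), per the labels. The annotation release and strand setting are not given in the sources used here. The authors deposited whole-number counts of 57010 genes, not normalized, and a normalized signal for the 21031 genes with over 50 counts in all, which equals the counts divided by DESeq2 size factors. The deposited comparison tables (DESeq2 1.46.0, per the labels) hold a log2 fold change with its error, a test score and p-values.

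Here the counts were tested with edgeR 4.0.16 in R 4.3.3 (quasi-likelihood, TMM, filterByExpr, only the groups compared), adjusted by Benjamini-Hochberg over all genes at 0.05. CPM use TMM library sizes, and log2 CPM a prior count of 2. Standard errors follow from the fold change and its F statistic, and single values were compared with exact permutation tests. Relations used 100000 permutations within group and series (scipy 1.17.1). The fit was tested on simulated data. Alternatives were DESeq2 1.42.0, its size factors, no filter, one fit of all groups, the library series, a replicate block and each library left out. Members' fold changes are given singly above 1.5 SE, otherwise as a range. Genes named are the 10 members, called genes of the further list (up to 4 a direction, and the 3 highest per kb) and the 5 most like Eln and Mfap5. Members and lists were chosen with earlier results of these data known. The 56310 identifiers matched to GENCODE vM39 gave exons and coordinates. Depth ran from 14895969 to 23617902 counts per library.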

Additional observations from a re-analysis of the deposited data

Results flagged for a closer look

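In the 20 groups of 4 libraries tested for a library far from the others (10 genes in the S205A mutants and in their controls), 2 stood out, where chance gives about 1 in 20. S205A control 4 held 248 CPM of Fbn1, against 100 to 112 CPM in the other 3 controls. It is the one S205A control outside the 22 series. S205A control 1 held 15.1 CPM of Mfap4, against 28.6 to 30.1 CPM in the other 3. That library also had the lowest fibroblast marker sum of the 26 (2578 CPM), and its part in the value was not tested.

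The effect on Loxl1 differed between the knockout and Y198F, by -0.77 (knockout minus Y198F, edgeR interaction, adjusted p = 0.019). In the Y198F line mutation and library series cannot be told apart.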

How the results depend on the processing

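Of 320 values for the 10 genes with 1 library left out, 268 kept direction and side of the threshold, 8 lost a call and 44 changed sign; of 280 under the other settings these were 245, 7 and 25, and 3 gained a call. The sign changes came mostly from values within 1.5 SE of 0. In the knockout, 5 genes were called by edgeR, 117 by DESeq2, 243 without the filter on low counts and 1 to 5 with a library left out. In Y198F against its labelled controls, 2411 genes were called, 922 in one fit of all groups, 0 with the series as a term, 0 against the S205A controls and 908 to 2128 with a library left out; of the members, 4 were called, 0 under each of those 3 settings and 2 to 4 with a library left out. Of members beyond 1.5 SE in Y198F, Fbn1 (0.28 and 0.67), Efemp2 (-0.13 and -0.032) and Lox (0.11 and 0.30) changed sign with the series as a term and against the S205A controls; Ltbp4 did so against the S205A controls (-0.12), but not without S205A control 2 (0.59). Of those within 1.5 SE, Mfap5, Mfap4, Emilin1 and Fbln5 changed sign under both, and Eln against the S205A controls. Without the filter, Lox passed in Y198F (-0.35, edgeR adjusted p = 0.043). In S205A, DESeq2 called 47 genes and 1 member (Eln) where edgeR called 0, and a library left out gave 0 to 1 genes. In Y308F, 7 genes were called without the filter and 0 to 1 with a library left out. DESeq2, added after seeing the data, called 37 genes and 1 member (Fbn1) in Y198F against the S205A controls. With replicate number as a block, 18 genes were called in the knockout, 1760 in Y198F, 4 of them members, and 0 in S205A and in Y308F. Deviations of same-numbered libraries correlated at r between -0.28 and 0.23. Each r comes from a single pair of libraries, so these values cannot decide whether the numbers mark a pairing. Per kilobase of longest transcript, Eln stood at 1540, Emilin1 at 55.2, Efemp2 at 22.4, Mfap5 at 19.1 and Fbn1 at 17.2 CPM per kb. Fbn1 thus lay below Efemp2 and Mfap5, the reverse of their order by all annotated exons. The lowest member count was 189; depth was not tested against the calls.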
